A study of Homo sapiens with 2 samples.

Results

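Immediate early genes and dual-specificity phosphatase (DUSP) genes were compared between SAS cells and eSAS cells. The members were the 20 immediate early genes FOS, FOSB, FOSL1, FOSL2, JUN, JUNB, JUND, EGR1, EGR2, EGR3, NR4A1, NR4A2, NR4A3, MYC, IER2, IER3, IER5, BHLHB2, ZFP36 and PHLDA1, and the 23 genes that the array names DUSP followed by a number, which made 43 of the 30398 gene names on the array. BHLHB2 is the older symbol of BHLHE40. The 43 genes were covered by 70 probes in 88 spots.

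SAS is an established cell line from a human squamous cell carcinoma of the tongue, and eSAS is the population obtained from it after 5 rounds of spheroid selection with a filter tool named Spheroid Catch. Total RNA was taken from both in the log growth phase and hybridised to 1 Agilent whole human genome array each, so the comparison had no biological replicate and no test between cells was possible. The labels call the selected cells populations, the study's methods also describe picking single cells to set up a line, and whether the eSAS RNA came from such a clone is not given in the sources used here. Both arrays lay on 1 slide. Values are the processed signal of the scanner software in arbitrary units, and ratios are log2 of eSAS over SAS after each signal was divided by the 75th percentile of its array, 1242 for SAS and 1196 for eSAS.

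Immediate early genes are switched on within minutes of a growth factor, serum or stress signal, without new protein synthesis, through kinases of the ERK, JNK and p38 families and factors already sitting at their promoters. Many encode transcription factors: FOS and JUN proteins pair to form AP-1, and EGR, NR4A and MYC proteins each bind their own sites. The DUSP genes include the MAP kinase phosphatases, several of which are induced by the same kinases that they switch off, and these genes are widely read as a record of how active the kinases were. In squamous epithelium AP-1 is known for its part in proliferation, migration and differentiation.

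Because most AP-1 members shared one short promoter motif, that motif is shown first. The letters TGACG, the core of the cyclic AMP response element (CRE), were searched on both strands in the 250 bases before each RefSeq start (assembly GRCh38.p14), and the motif was chosen after the members' promoters had been seen. It lay in the window of FOS, FOSB, FOSL2, JUN, JUNB and JUND, all 6 AP-1 members with a window, against 21.2% of all 35116 windows. The stretches of 80 bases around the match nearest the start are given 5′ to 3′ on the strand of the gene, with the core in capitals on either strand. That of FOS was chr14:75278726-75278805, of FOSB chr19:45467898-45467977 and of FOSL2 chr2:28392754-28392833, all on the plus strand. JUN lay at chr1:58784129-58784208 on the minus strand, JUNB at chr19:12791311-12791390 on the plus strand and JUND at chr19:18281667-18281746 on the minus strand.
FOS: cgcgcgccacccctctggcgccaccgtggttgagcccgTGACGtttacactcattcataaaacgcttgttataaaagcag
FOSB: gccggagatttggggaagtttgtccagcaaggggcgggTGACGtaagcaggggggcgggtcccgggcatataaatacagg
FOSL2: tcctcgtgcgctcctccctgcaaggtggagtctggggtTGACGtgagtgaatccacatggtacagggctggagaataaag
JUN: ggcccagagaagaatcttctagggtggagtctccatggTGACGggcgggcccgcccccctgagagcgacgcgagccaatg
JUNB: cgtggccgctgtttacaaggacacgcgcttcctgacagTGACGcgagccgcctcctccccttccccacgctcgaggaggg
JUND: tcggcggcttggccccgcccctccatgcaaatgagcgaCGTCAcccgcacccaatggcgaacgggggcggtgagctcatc

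Over all immediate early members the core was in 10 of 18 windows, and over the DUSP members in 6 of 23. The full element TGACGTCA, which contains the core on both strands, was in 1.65% of all windows and in those of JUND, DUSP1 and DUSP8. The CArG box, the letters that serum response factor binds, was in 1.16% of all windows and in those of EGR1 and EGR2. DUSP1 (chr5:172771265-172771344, minus strand, CRE core in capitals) and EGR1 (chr5:138465361-138465440, plus strand, CArG boxes in capitals) are shown as examples of these.
DUSP1: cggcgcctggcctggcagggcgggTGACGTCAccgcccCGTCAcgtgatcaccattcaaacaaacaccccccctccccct
EGR1: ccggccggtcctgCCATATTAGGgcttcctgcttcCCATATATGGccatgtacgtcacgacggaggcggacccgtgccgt

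No window was given for FOSL1, EGR3, MYC, IER3, NR4A2, DUSP4, DUSP5, DUSP12, DUSP13 and DUSP26. The windows of NR4A1, DUSP9 and DUSP10, which are described below as differing between the cells, held neither the core nor a CArG box, whereas those of JUN, NR4A3 and DUSP21 held the core. These are matches of letters and not binding sites.

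The RNA was checked against markers of its labelled cell type. All 8 squamous epithelial markers were above background on both arrays. Of these, 7 had a lower signal in eSAS and 3, KRT5, KRT14 and SFN, were at least 1.5-fold lower, against 6.34% of all genes with a value. The largest marker difference was that of KRT14, a basal keratin, whose probes gave log2 ratios of -6.58 and -1.23. Of the markers of other cells, 0 of 6 for fibroblasts, 3 of 6 for leukocytes (CD68, CD14 and CD79A) and 1 of 4 for endothelium (VWF) were above background on both arrays, with PTPRC, CD3E, PECAM1 and COL1A2 above it on neither. The fibroblast marker LUM was above it in eSAS alone, 3.21 in SAS and 29.6 in eSAS, at least 2.40-fold higher. COL1A1 (15.2 and 5.28) and CDH5 (17.0 and 6.88) were above it in SAS alone. The signals summed over the brightest probe of each marker were 54.0 in SAS and 58.3 in eSAS for fibroblasts, 3410 and 3401 for leukocytes and 115 and 99.4 for endothelium.

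Most immediate early and DUSP genes differed by less than 1.5-fold between the cells. Of the 43 members, 39 were above background on both arrays, DUSP21 on the eSAS array alone, and NR4A2, DUSP26 and DUSP27 on neither. Among the 39, 34 (87.2%) lay within 1.5-fold, as 91.8% of all such genes did, and the ratio was above 0 for 19 and below 0 for 20. The median log2 ratio was -0.028 for the 19 immediate early genes and 0.044 for the 20 DUSP genes, beside -0.0012 over the 19467 genes above background on both arrays. The SD of the ratios was 0.41 over the 39 members and 0.37 over those genes.

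At least 1.5-fold higher in eSAS were 3 of the 40 members with a value, NR4A1, NR4A3 and DUSP21, while 4.66% of all 20865 genes with a value were. Lower by at least 1.5-fold were 3 members, JUN, DUSP9 and DUSP10, against 6.34% of all genes. At 2-fold there was 1 member higher, DUSP21, against 2.01% of all genes, and 1 lower, DUSP9, against 2.14%. The members' counts were thus near what the shares of all genes give, and nothing about the members as a group is read from them. The members just beyond the 1.5-fold limit of 0.585 in log2 were DUSP10 at -0.60 and NR4A1 at 0.67, and those just short of it EGR2 at -0.53 and DUSP8 at 0.52.

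**Figure D1:**
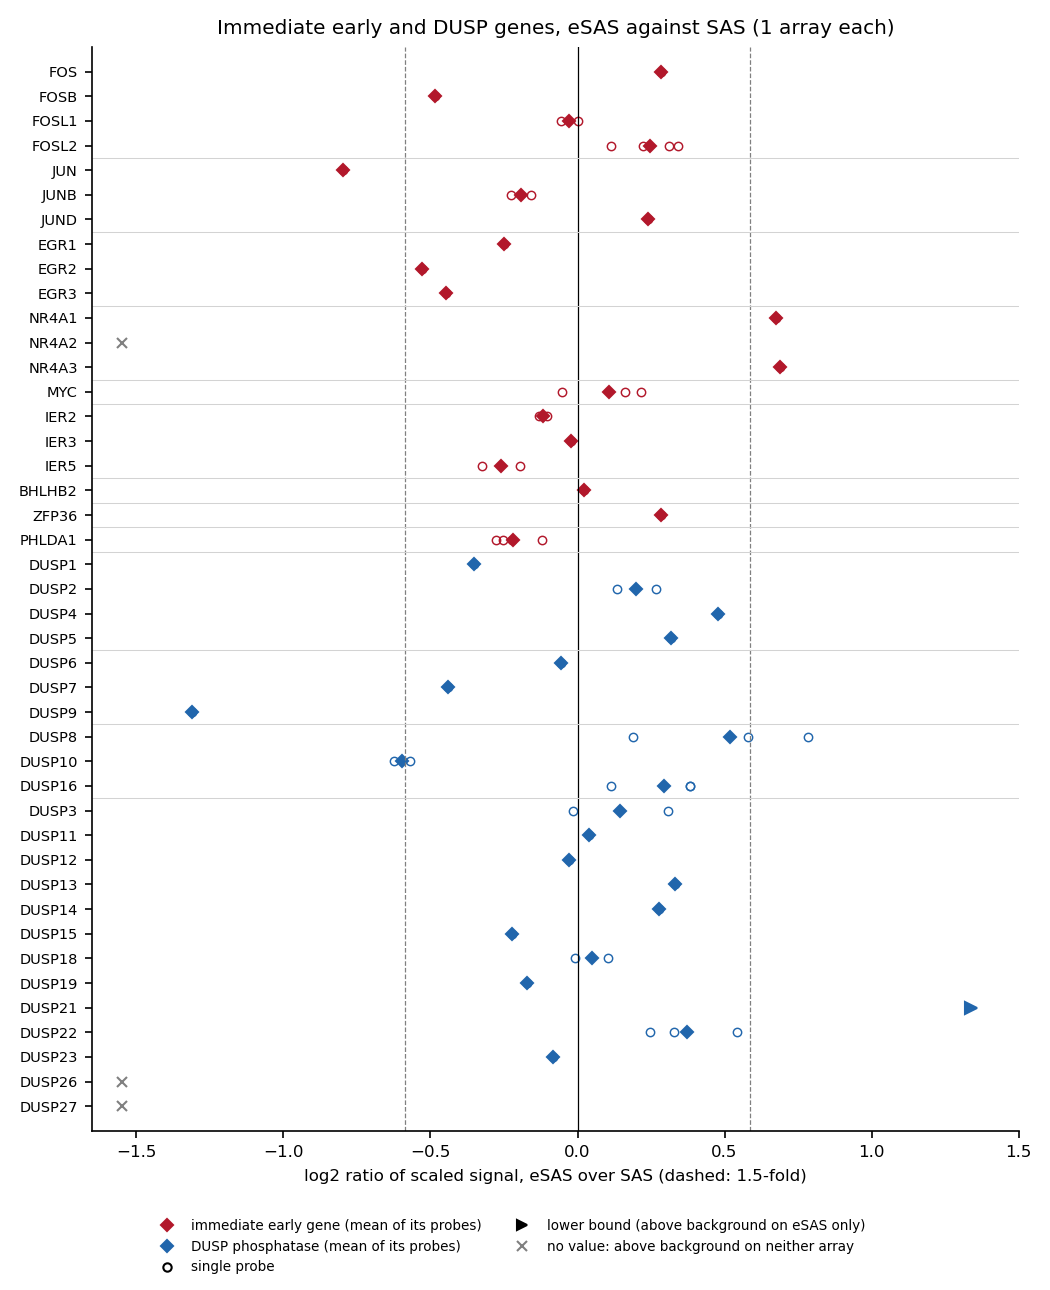
Log2 ratio of scaled signal, eSAS over SAS, for each of the 43 members in the order of their roles. Diamonds are genes (mean of the probes above background on both arrays), open circles single probes, the triangle a lower bound and crosses genes without a value; JUN, DUSP9 and DUSP10 lie left of the dashed 1.5-fold lines, and NR4A1, NR4A3 and DUSP21 right of them.

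The precision of a ratio came from probes printed several times on the array. Over 211 such probes above background, the ratio of single spots had a pooled SD of 0.080 in log2. It was 0.20 below a signal of 100, 0.075 from 100 to 1000, 0.042 from 1000 to 10000 and 0.045 above 10000. The error that the scanner software itself assigned to the ratio of a bright spot was wider, 0.20. Both describe spots, not cultures, so neither shows how far a second pair of cultures would differ.

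JUN encodes the main AP-1 partner of FOS proteins. Its probe (hg18 chr1:59020317-59020376) was 1 of the 2 member probes printed in 10 spots, all on the same pair of arrays. In SAS their signals were 28568 at the lowest, 29772 at the median and 33876 at the highest, and in eSAS 15692, 16441 and 19855. The 2 sets of spots did not overlap. The log2 ratio was -0.80 ± 0.035 (SD over 10 spots), ranging from -0.84 to -0.72, which made JUN 1.74-fold lower in eSAS.

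Such a ratio was uncommon at that brightness. Of the 2690 probes with a signal above 10000, 39 (1.45%) were at least 1.5-fold lower in eSAS, and JUN was among the 4 (0.149%) that were lower by as much as JUN or more. By contrast, 8.34% of the 5759 probes under a signal of 100 were at least 1.5-fold lower. No other member with a signal above 10000 differed by 1.5-fold.

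**Figure D2:**
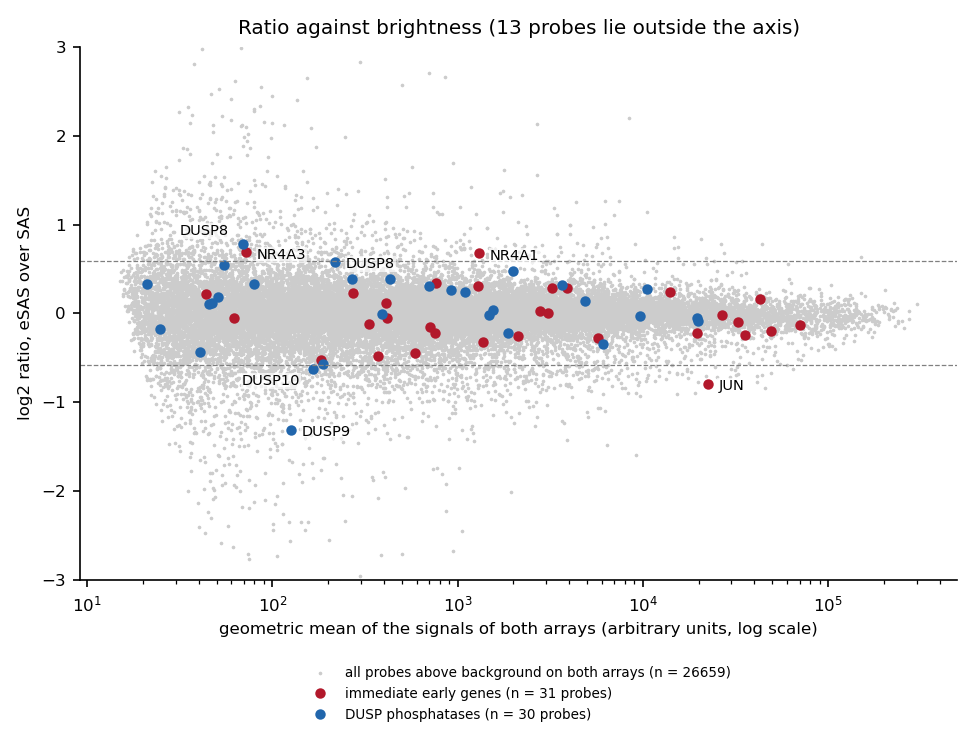
Log2 ratio of eSAS over SAS against the geometric mean of the signals of both arrays (log scale) for the 26659 probes above background on both arrays in grey, with 31 probes of immediate early genes in red and 30 of DUSP genes in blue; 13 probes lie outside the axis. The grey cloud narrows with brightness, and JUN lies at its lower edge among bright probes, whereas DUSP8, DUSP10 and NR4A3 lie within its wider, dimmer part.

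The other JUN family members were within 1.5-fold. JUNB, which can oppose JUN at some promoters, had signals of 21619 in SAS and 17798 in eSAS at its brighter probe, and a log2 ratio of -0.19 over 2 probes. JUND, the member that is usually expressed without stimulation, had 13180 and 14985, a ratio of 0.24. The 3 JUN genes thus ranged from -0.80 to 0.24. With another background correction (normexp), which did not shift all genes alike, JUND was lower, at -0.32.

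All 4 FOS family genes were within 1.5-fold. FOS, the prototype of the class, gave 2968 in SAS and 3483 in eSAS, a log2 ratio of 0.28. FOSB gave 445 and 307, a ratio of -0.48. With normexp FOS was at -0.068 and FOSB at 0.54, in a setting where the median of all genes was 0.68 and genes were not shifted alike. FOSL1 encodes Fra-1, the FOS protein most often linked to invasive carcinoma cells. Its 2 probes read 3125 and 433 in SAS against 3013 and 401 in eSAS, with log2 ratios of 0.0018 and -0.058. FOSL2 had 4 probes, and every one was higher in eSAS, by 0.11 to 0.34.

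MYC, which drives growth and ribosome genes, was also printed in 10 spots of 1 probe. The signals ran from 38556 through a median of 42022 to 42989 in SAS, and from 42178 through 44380 to 47468 in eSAS. The spots of the 2 arrays overlapped in unscaled signal. After scaling they did not, with the highest SAS spot at 5.11 in log2 and the lowest eSAS spot at 5.14. The log2 ratio was 0.16 ± 0.041 (SD over 10 spots), higher in eSAS at each spot by 0.099 to 0.24. The other two probes, both dim, gave -0.052 and 0.22, and the gene stood at 0.11. The 10-spot probes of MYC and JUN thus had ratios of opposite sign. That of MYC was smaller than the software's error of 0.20 and than the SD of 0.18 over all probes above a signal of 10000.

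**Figure D3:**
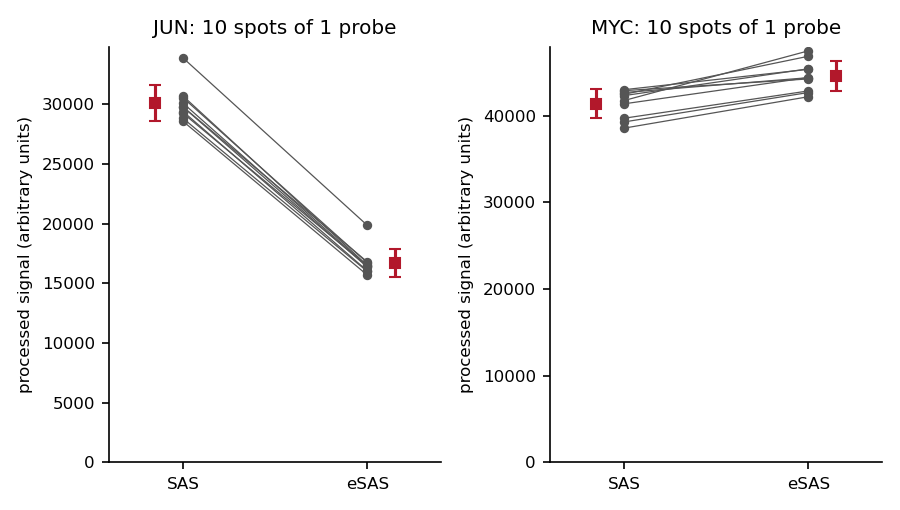
Processed signal (arbitrary units, axis from 0) of the 10 spots of the JUN probe and of the MYC probe on the SAS and eSAS arrays, each line joining the same spot position. Red squares are means and bars SDs over spots; all 10 JUN spots are lower on the eSAS array, and the MYC spots are slightly higher.

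All 3 EGR genes, zinc finger factors that ERK signalling induces through serum response factor, were lower in eSAS but within 1.5-fold, although with normexp, another background correction, EGR2 and EGR3 were higher (1.47 and 0.17). Normexp as fitted on all spots moved the median of all genes to 0.68, but it did not shift all genes alike. The bright DUSP6 went from -0.056 to -0.61, and the dim DUSP7 from -0.44 to 2.51. A place above or below that median, as for EGR2 and EGR3, is therefore not read as a difference between the cells. EGR1 gave 39662 in SAS and 32149 in eSAS, a log2 ratio of -0.25. EGR2 gave 224 and 150, a ratio of -0.53, and EGR3 703 and 497, a ratio of -0.45. Each rested on 1 spot, and EGR2 and EGR3 exceeded the software's error of 0.21 and 0.20 whereas EGR1 was close to it.

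The NR4A genes encode orphan nuclear receptors that act as immediate early factors. NR4A1 (probe at hg18 chr12:50739445-50739504) read 1055 in SAS and 1620 in eSAS. Its log2 ratio was 0.67, or 1.60-fold higher in eSAS, and 0.912% of the 7789 probes with signals from 1000 to 10000 were higher by as much. A second NR4A1 probe was not well above background on either array. NR4A3 (hg18 chr9:101635572-101635631) was dim, 58.2 in SAS and 90.2 in eSAS, a ratio of 0.69 or 1.61-fold. Among probes of that brightness 5.73% were higher by as much, and the other NR4A3 probe, not well above background on either array, read 15.4 and 6.11, which put the gene at -0.30 where dim probes were not filtered. Both NR4A ratios rested on 1 spot each.

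The remaining immediate early genes were within 1.5-fold. IER2, IER3 and IER5, small induced nuclear or stress response proteins, had log2 ratios of -0.12, -0.021 and -0.26. The brighter IER2 probe gave 74919 in SAS and 65889 in eSAS. BHLHB2, a basic helix-loop-helix repressor of the clock and hypoxia responses, gave 2806 and 2747, a ratio of 0.024. ZFP36, whose protein binds AU-rich messages and speeds their decay, gave 3614 and 4239, a ratio of 0.28. PHLDA1, a target of ERK signalling, had 4 probes, and the brightest read 6392 in SAS and 5084 in eSAS. All 4 were lower in eSAS, with ratios from -0.28 to -0.12. Normexp, with a median of 0.68 over all genes, put the gene at 0.041.

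The inducible nuclear MAP kinase phosphatases DUSP1, DUSP2, DUSP4 and DUSP5 were all within 1.5-fold. DUSP1, a stress and growth factor induced phosphatase of p38, JNK and ERK, gave 7014 in SAS and 5295 in eSAS, a log2 ratio of -0.35. DUSP4 gave 1717 and 2300, a ratio of 0.48, and DUSP5, which is specific to ERK, 3352 and 4021, a ratio of 0.32. DUSP2 was at 0.20 over 2 probes. So 3 of these 4 were higher in eSAS and DUSP1 was lower, although DUSP5 stood at -0.11 with normexp.

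The cytoplasmic ERK phosphatases held the member with the largest measured difference. DUSP9 (hg18 chrX:152569146-152569205) gave 202 in SAS and 78.2 in eSAS, a log2 ratio of -1.31, or 2.48-fold lower in eSAS, while normexp put it at 1.20. It was measured by 1 spot, with a software error of 0.21, and 0.701% of the 10421 probes with signals from 100 to 1000 were lower by as much. DUSP6, the feedback phosphatase most tightly tied to ERK output, gave 20309 and 18813, a ratio of -0.056. DUSP7 was dim, 48.5 and 34.5, with a ratio of -0.44 and a software error of 0.28. It was at 2.51 with normexp and at -0.12 without background correction.

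The phosphatases of JNK and p38 differed in opposite directions, although DUSP10 was higher, at 1.31, with normexp. DUSP10 (hg18 chr1:219941801-219941860 and chr1:219942396-219942455) read 209 and 234 in SAS and 130 and 152 in eSAS at its 2 probes. Their log2 ratios of -0.63 and -0.57 differed by less than the spot SD of that brightness, and the gene was 1.51-fold lower in eSAS. Among the 10421 probes with signals from 100 to 1000, 4.50% and 5.44% were lower by as much as these. DUSP8 was higher in eSAS at 3 probes, from 183 to 263, 53.6 to 88.7 and 48.8 to 53.6, with ratios of 0.58, 0.78 and 0.19. The first and the second of these probes overlap (hg18 chr11:1534094-1534153 and chr11:1534083-1534142). Among probes of like brightness, 2.65% were higher by as much as the first and 4.31% by as much as the second. The spread of 0.59 between DUSP8 probes was the widest of any member, and their mean was 0.52. DUSP16 was at 0.29 over 3 probes.

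The atypical DUSP genes, small phosphatases that mostly lack the kinase-binding domain, numbered 13, and 10 were above background on both arrays with log2 ratios from -0.22 to 0.37. The brightest probe, that of DUSP23, gave 20803 in SAS and 18915 in eSAS, a ratio of -0.083. DUSP14 gave 9726 and 11357, a ratio of 0.28, and DUSP12 9888 and 9332, a ratio of -0.029. DUSP22, a phosphatase of the JNK pathway, had 3 probes at 0.25 to 0.54. DUSP3, DUSP11, DUSP13, DUSP15, DUSP18 and DUSP19 made up the rest, within -0.22 and 0.33.

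DUSP21 (hg18 chrX:44588930-44588989), a gene known mainly from testis, was not well above background in SAS, with a signal of 2.85, and read 31.3 in eSAS. It was at least 2.53-fold higher there, a bound taken against the lowest signal well above background on the SAS array, 12.8. The value rested on 1 dim spot per array, with a software error of 1.45 for the log2 ratio of their signals. It was short of 1.5-fold without background correction, at 0.47, and with normexp fitted without spots of marked background, at 0.34. NR4A2, DUSP26 and DUSP27 (now STYXL2) read from 2.65 to 6.88 on both arrays. A second DUSP19 probe was above background in SAS alone, 19.9 against 3.48.

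Genes around the members were then examined in lists. These were chosen, like the members, with earlier results of the arrays known. Of all genes with a value, 6.34% were at least 1.5-fold lower and 4.66% higher, and the counts of each list are to be read beside these shares. The list sizes, unlike these shares, include genes above background on neither array, which had no value. These were 2 AP-1 targets and 1 gene each of the JNK and p38 cascade, other immediate early, AP-1 partner, MYC partner and heat shock lists. In the RAS-RAF-MEK-ERK cascade 2 of 18 genes were at least 1.5-fold lower and 0 higher, with a median of -0.029. The ERK-activated kinase RPS6KA3 (RSK2) read 3300 in SAS and 1890 in eSAS, with -0.71 over 2 probes. RPS6KA5 (MSK1), a kinase of histones and CREB at immediate early promoters, read 2562 and 1596, with -0.74 over 3 probes. Both were lower at every probe.

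Of 14 JNK and p38 cascade genes none reached 1.5-fold in either direction, and their median was -0.0088. ELK1, the ERK target that binds beside serum response factor, was the 1 of 8 promoter-bound factors that did, at 175 and 109, a ratio of -0.63, while SRF itself was at 0.13. The 10 ERK output genes, of which DUSP4, DUSP6 and PHLDA1 are also members, had a median of -0.023 and none at 1.5-fold.

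Among 25 other immediate early genes 2 were lower and none higher by 1.5-fold, with a median of -0.0032. GADD45B, a stress-induced regulator, read 6304 in SAS and 3873 in eSAS, a log2 ratio of -0.64 over 2 probes. RHOB, a small GTPase, was above background in SAS alone, 30.5 against 12.3, and at least 1.93-fold lower in eSAS. Among the others, HBEGF, a ligand of the EGF receptor, was the highest at 0.50.

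The AP-1 partner factors were at a median of 0.057, with 1 of 10 beyond 1.5-fold. This was JDP2, a repressor that pairs with JUN, at 1165 in SAS and 609 in eSAS, a log2 ratio of -0.88. Of 13 genes known as AP-1 targets, 2 had no value. Of the list 3 were at least 1.5-fold lower (6.34% of all genes with a value were) and 0 higher. The 9 above background on both arrays had a median of -0.25. The protease PLAU read 15472 and 9559, a ratio of -0.64. VIM read 278 and 177, a ratio of -0.60. MMP1, a collagenase, read 352 in SAS and 17.9 in eSAS, where no more than 50% of its spots were well above background. PLAUR, CCND1 and MMP3 in the same list were higher in eSAS, by 0.39, 0.22 and 0.32. MMP3 was dim, 22.1 in SAS and 26.4 in eSAS, under a signal of 100, where the spot SD was 0.20. Any tie of these genes to the level of JUN was not tested.

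The MYC partner factors had a median of 0.17, and none of 10 reached 1.5-fold. The heat shock genes, which report a stress that also induces immediate early genes, had a median of 0.011 with none of 9 beyond 1.5-fold. HSPA1A, the main inducible one, was at 0.042 and DNAJB1 at 0.015.

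**Figure D4:**
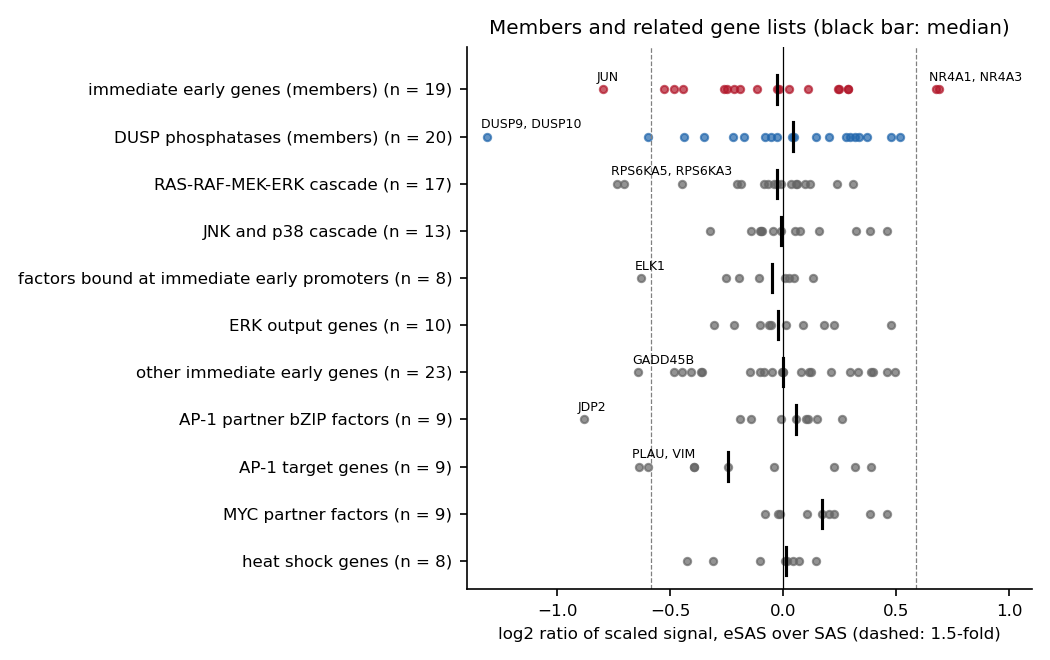
Log2 ratio of eSAS over SAS for members and related gene lists above background on both arrays, a point per gene and a black bar at the median of each list. The medians lie close to 0 except those of AP-1 target genes at -0.25 and MYC partner factors at 0.17; genes beyond the dashed 1.5-fold lines are named.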

How the data were processed

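RNA of SAS and eSAS cells was labelled with Cy3 and hybridised to 1 Agilent array each. The authors deposited the scanner output of Agilent Feature Extraction 10.7.3.1 as linear intensity, in which the processed signal is background-subtracted and not scaled between arrays. The deposited intensity table of the series equalled the processed signal at all 45015 spots of each array. Of 43376 probe spots, 69.4% in SAS and 67.5% in eSAS were well above background and 0 were saturated. Spots marked as non-uniform or as outliers were left out, and none belonged to a member.

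Signals were divided by the 75th percentile of each array, taken to log2, averaged over spots of a probe and then over probes of a gene. A probe counted as above background where more than 50% of its spots were. A probe above background on 1 array got a bound against the lowest signal well above background, 12.8 in SAS and 15.2 in eSAS, or its own dim signal where higher. Limits of 1.5-fold and 2-fold described differences, and with 1 array per group no p-value was computed. Members, lists and limits were chosen with earlier results of these data known. Named were members at least 1.5-fold apart, with disagreeing probes, above background on 1 array, or brightest in their role, and list genes at least 1.5-fold apart, with further genes named after their values were seen. A gene of the list of AP-1 targets is not reported here, and the list's values leave it out. The calculation was tested on simulated arrays. Python 3.11.15, pandas 2.3.3 and, for normexp, limma 3.58.1 in R 4.3.3 were used. Probe positions are hg18, and the exon or UTR they lie in was not analysed here.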

Additional observations from a re-analysis of the deposited data

How the results depend on the processing

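No paired analysis was possible because there was 1 array per cell population, and no array could be left out. The members were recomputed under 13 alternatives, of which 4 (the authors' table, marked spots kept, RefSeq names and probes above background on both arrays) altered no ratio they gave. The other 9 altered 266 member ratios, 67 of them by more than the spot SD of 0.080, besides 3 called ratios that changed sign. Of the 7 that altered JUN, all 7 left it at least 1.5-fold lower, from -1.34 to -0.77. NR4A1 stayed above 0, from 0.44 to 0.69, and fell under 1.5-fold with normexp alone. Its normexp value of 0.44 came from a setting where the median of all genes was 0.68 and genes were not shifted alike. DUSP10 stayed beyond 1.5-fold under 2 of the 7 that altered it, NR4A3 under 4 of 7, DUSP21 under 5 of 7 and DUSP9 under 5 of 6.

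Normexp background correction fitted on all spots moved the median of all genes by 0.68 and put 50.9% of them at least 1.5-fold higher. Members beyond 1.5-fold then numbered 14 upward and 7 downward, members 2-fold up 13, with a DUSP median of 0.18, and ratios of 1.31 for DUSP10 and 1.20 for DUSP9 in place of negative values. Fitted without spots of marked background it left 1 member up by 1.5-fold, and past 2-fold 0 up and 0 down. No background correction also gave 1, 0 and 0. The cause was not tested. With probes above background on both arrays only, 0 members were 2-fold higher, since DUSP21 was left out. With no filter on dim probes 2 were 2-fold lower (DUSP9 and DUSP19, at -1.19), the DUSP median was 0.15 and NR4A3 was at -0.30, since its dim second probe then entered the mean. Leaving out array rows 450 to 510 left DUSP1, DUSP6 and DUSP7 without a value and put DUSP8 at 0.38. Signals under 100, where the spot SD was 0.20, limit NR4A3, DUSP7, DUSP13, DUSP19 and DUSP21.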
